A study of Mus musculus with 6 samples.

Results

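The genes described here encode the insulin-like growth factor (IGF) system of mouse bone marrow: the ligand gene Igf1, the receptor genes Igf1r and Igf2r, the insulin receptor substrate genes Irs1 and Irs2, and 5 IGF binding protein genes, Igfbp2, Igfbp3, Igfbp4, Igfbp5 and Igfbp7. Of these 10 genes 9 had a probe whose accession matched RefSeq, with 15 probes in all among 41157 usable probes. No probe matched Irs2, which is not analysed here. After a filter on dim probes, 12 probes and 8 genes were tested, among 14853 genes tested in all. The family was chosen by a measured value: the reading of Igfbp2 was higher after recombinant human erythropoietin (rHuEPO) in these same arrays. Its values in that comparison, and those of its relatives, are therefore a description and carry no test.

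Total RNA of femoral bone marrow cells was profiled on 6 one-colour Agilent arrays, 1 sample per array. All samples came from male mice of mixed strain, 10 weeks old, with the ISAM genotype (Epo-/-::3.3K-Epo3'-Tg458), in which the Epo gene is deleted and an Epo transgene is carried. ISAM is a model of anemia from erythropoietin deficiency, and there was no wild-type sample. The 3 treated samples were taken 6 h after 3000 U/kg rHuEPO was injected into the peritoneal cavity, and the control arm held 1 untreated sample besides 2 samples from mice given phosphate-buffered saline (PBS) 6 h earlier in place of rHuEPO. The labels do not say whether replicates were separate animals, so every p-value below measures the spread between these samples only. With 6 arrays the precision of each value is limited.

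IGF1 is a secreted growth factor that binds the receptor tyrosine kinase IGF1R, and the insulin receptor substrates carry the signal from that receptor to PI3-kinase, AKT and mTORC1, while AKT keeps FOXO transcription factors out of the nucleus. The IGF binding proteins hold IGFs outside the cell and can block or prolong their action. In bone marrow IGF1 is known as a growth and survival factor of erythroid progenitors, stromal cells are a source of several of the binding proteins, and IGFBP2 is known for supporting haematopoietic stem cells in culture.

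Igfbp2 and Igfbp5 are neighbours on mouse chromosome 1, with no gene between them in the RefSeq annotation, and their readings behaved differently in these samples. The 250 bases before the start of each gene are therefore shown, from RefSeq on build GRCm38.p6, 5′ to 3′ on the gene's strand. Capitals mark matches to CACGTG and GGGCGG.
Igfbp2, chr1:72824230-72824479, plus strand: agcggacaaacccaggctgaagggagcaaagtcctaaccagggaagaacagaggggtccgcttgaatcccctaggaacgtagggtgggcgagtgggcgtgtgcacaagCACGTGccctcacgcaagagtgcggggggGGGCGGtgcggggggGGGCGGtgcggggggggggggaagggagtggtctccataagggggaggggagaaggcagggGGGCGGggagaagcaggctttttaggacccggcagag
Igfbp5, chr1:72874866-72875115, minus strand: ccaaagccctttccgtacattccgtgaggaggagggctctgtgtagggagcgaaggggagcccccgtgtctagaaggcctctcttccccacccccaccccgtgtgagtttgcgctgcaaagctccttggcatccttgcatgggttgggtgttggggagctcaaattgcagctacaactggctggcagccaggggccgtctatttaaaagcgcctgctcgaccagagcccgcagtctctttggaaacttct

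The Igfbp2 stretch shown has a GC content of 67.2%, against 58.8% for the Igfbp5 stretch. RefSeq also holds a second Igfbp2 start, and the 250 bases before it, not shown, have 56.4%. Motifs were searched on both strands in windows of 250 bases before to 50 bases after the start, which the RefSeq table holds for all 10 genes. GGGCGG, the core of the GC box bound by SP1, was found 3 times before Igfbp2, with first bases at -113, -98 and -37 relative to the start. It was found in the windows of 6 of the 10 genes, and 35.7% of all 32851 windows hold it. CACGTG, an E-box, was found once before Igfbp2, and Irs1, Irs2 and Igf2r hold it too, 4 of the 10 genes, against 7.15% of all windows. This E-box contains ACGTG, the core of the hypoxia response element, on both strands, so the 2 ACGTG matches before Igfbp2 are the same letters. ACGTG was found in the windows of 5 of the 10 genes and in 19.6% of all windows. TTCNNNGAA, the pattern bound by STAT5, the main transcription factor downstream of the erythropoietin receptor, was found in none of the 10 genes' windows, and 8.30% of all windows hold it. The pattern of GATA factors, GATA with A or T before it and A or G after it, was found before Igf1 alone among the 10, at 2 places, and 29.8% of all windows hold it. TATAAA was found before Igfbp4 alone, against 13.6% of all windows. None of these 6 patterns was found before Igfbp5, nor in the window of the second Igfbp2 start. The windows of the 10 genes had a GC content of 52.3% (Igf1) to 76% (Igf1r), and the median over all windows was 52.7%. The shares over all windows were not matched for base composition, and its part in these counts was not tested. A match is a run of letters and not a measured binding site.

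Signals were put on a log2 scale relative to each array's 75th percentile, so 0 is the signal of the spot at that percentile. Levels of different genes come from different probes and cannot be compared. The 2 slides were each scanned once: slide 1 held rHuEPO replicate 1 and the untreated sample, and slide 2 held the other 4 arrays. The untreated array therefore differs from the PBS arrays in slide as well as in injection, and these cannot be told apart. With treatment in the fit, limma called 1577 of the 14853 genes between slide 1 and slide 2 (10.6%), 510 higher and 1067 lower on slide 1. With scaling to the array median it called 443 higher and 2512 lower, so the split of those calls depends on the scaling. Negative control spots, which read background, had median signals of 4.73 to 5.51 after rHuEPO and 3.74 to 4.03 in the control arm. Erythroblast markers (10 of 10) and neutrophil markers (8 of 8) were well above background on every array, as the tissue label has it.

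Igfbp2 had a single matched probe (A_51_P423308), so no second probe can be set beside its readings. It was well above background, by the scanner software's flag, on all 3 rHuEPO arrays and on none of the 3 control arrays. Its log2 level was -2.73, -1.58 and -2.11 in rHuEPO replicates 1, 2 and 3, against readings of -4.79 and -5.83 in the PBS samples and -5.81 in the untreated sample. Every rHuEPO reading lay above every control reading, and the highest control reading was that of PBS replicate 1. In linear units the signals were 39.8, 86.2 and 52.2 on the rHuEPO arrays, against 7.99 and 4.30 on the PBS arrays and 4.58 on the untreated array. The median of the negative control spots was 3.74 and 3.94 on those PBS arrays and 4.03 on the untreated array, so PBS replicate 1 read above it and the other control arrays near it. Because the control readings were not above background, the size of the difference is uncertain. As a guide, the rHuEPO mean was set against the lowest level that counted as well above background on each control array. By that guide Igfbp2 was 3.10-fold higher after rHuEPO, 2.16-fold in slide 1 and 3.70-fold in slide 2. With 1 array left out in turn the guide value lay between 2.55-fold and 3.80-fold, and against the PBS arrays alone it was 3.02-fold. It is no strict lower bound, because a probe can read above that level without the flag. The second Igf1 probe did so on PBS replicate 1, at -3.42 against a level of -3.73. RNA of whole marrow was measured, so more cells of a type that carries Igfbp2 and more Igfbp2 RNA per cell cannot be told apart.

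The readings themselves averaged -2.14 ± 0.57 in rHuEPO samples and -5.48 ± 0.60 in control samples (SD, n = 3 each), a difference of 3.34 ± 0.39 (limma SE). It was 3.08 in slide 1 and 3.46 in slide 2. The size of this difference depends on how the background is taken off. With normexp correction and an offset of 50, which lifts dim readings, it was 0.69. Among all genes tested 11 (0.0741%) were well above background on all rHuEPO arrays and on no control array, and Igfbp2 had the difference ranked 4 among those 11. This share and rank describe the selection of the gene.

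Markers of other cells were set beside Igfbp2. The summed linear signal of 13 marrow stroma markers, in units of the array's 75th percentile, was 47.9, 56.3 and 72.8 in rHuEPO samples, against 34.1 and 59.9 in PBS samples and 94.6 in the untreated sample, and the arms overlapped. The stroma list had 4 of 13 genes above 0 in rHuEPO minus control, with a median of -0.19. The erythroblast sum was 2337, 2082 and 2451 in rHuEPO samples, against 2088 and 2280 in PBS samples and 2383 in the untreated sample, and this sum, which the bright globin genes dominate, overlapped too. Gene by gene, 8 of 10 erythroblast markers lay above 0 in rHuEPO minus control, with a median of 0.37, and 2 of the 10 had rHuEPO values that all exceeded the control values. The macrophage sum was 61.6, 72.4 and 61.8 in rHuEPO samples, against 64.3 and 59.7 in PBS samples and 56.6 in the untreated sample. Of 10 macrophage markers tested 9 lay above 0, with a median of 0.38, and 2 were likewise separated. Over all genes 47.3% lay above 0, the median was -0.01 and 5.01% were separated in that direction, and limma called 0 genes of these 3 lists. In the same comparison 0 of 7 B lineage genes (median -0.26) and 0 of 5 megakaryocyte genes (median -0.11) lay above 0. Of the endothelial genes 2 of 6 tested did (median -0.13), and of the neutrophil genes 4 of 8 (median -0.002). Here too limma called 0 genes. Hepatocytes make much Igfbp2, and 3 of 4 hepatocyte markers had a probe. Ttr and Apoa1 were well above background on no array. Alb, which encodes serum albumin, was so on 1 array, rHuEPO replicate 1. Alb read -1.58 there, against -5.46 and -4.78 in rHuEPO replicates 2 and 3. The part of any of these cell types in the Igfbp2 reading was not tested.

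**Figure D1:**
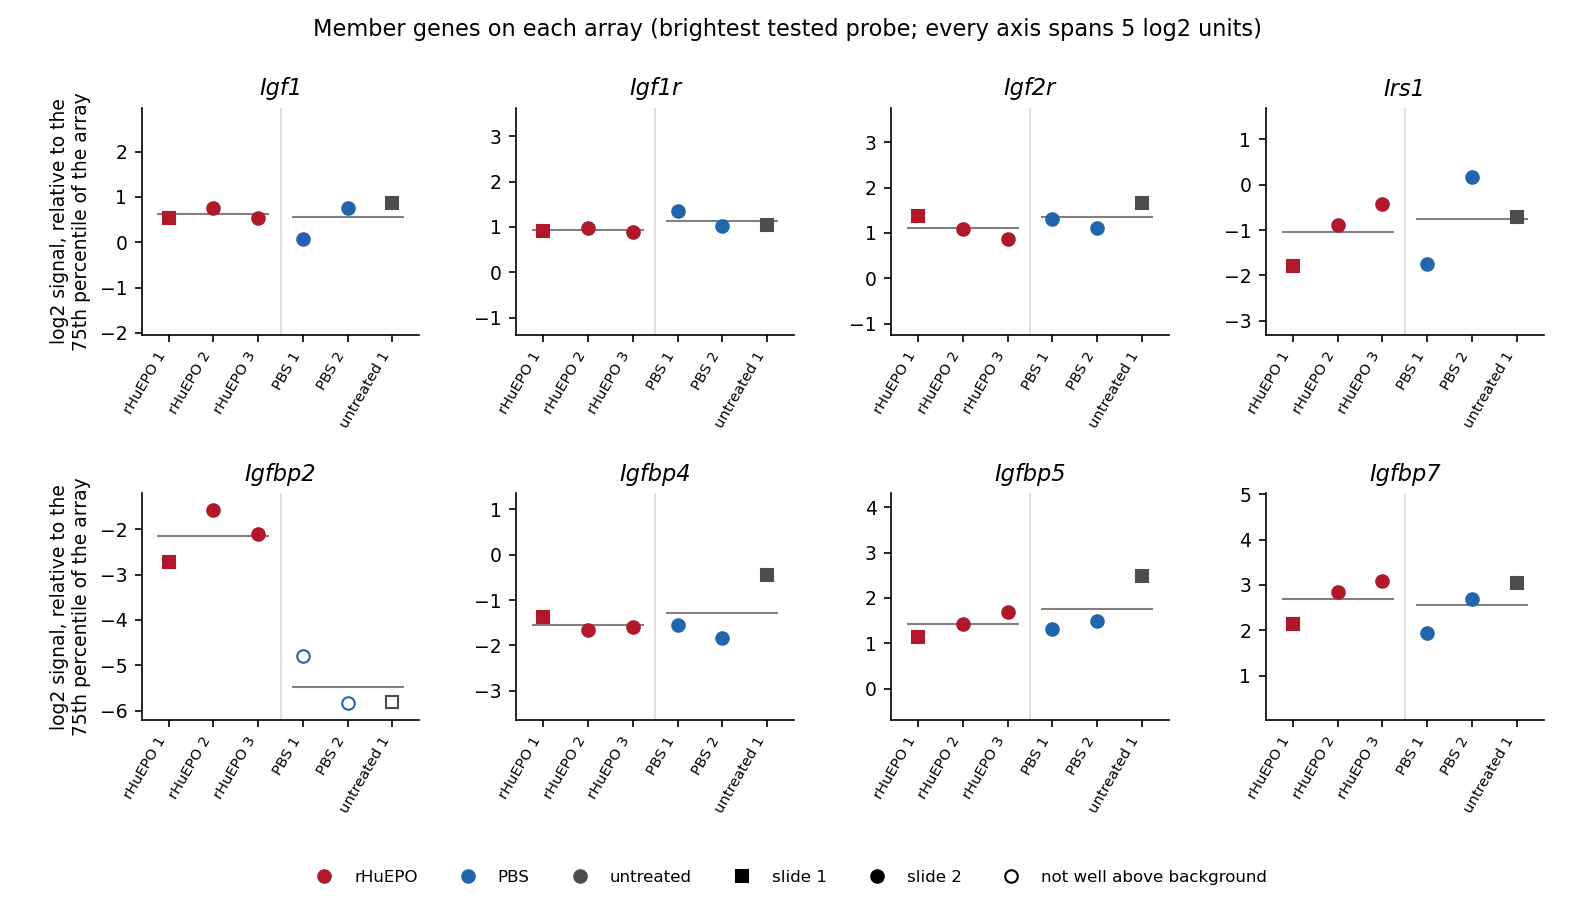
Log2 signal relative to the array's 75th percentile for the brightest tested probe of 8 genes, with 3 rHuEPO arrays left of 2 PBS arrays and 1 untreated array. Squares are slide 1, circles are slide 2, open symbols are readings not well above background, and grey lines are the means of the 3 rHuEPO and the 3 control arrays. The 3 rHuEPO readings of Igfbp2, from -2.73 to -1.58, stand above the open control readings, while Igfbp4 and Igfbp5 are highest on the untreated array.

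The ligand gene Igf1 was measured with high precision on each array. Its main probe (A_51_P147942) is printed as 10 spots per array. The mean log2 level over the 10 spots was 0.54, 0.76 and 0.55 in rHuEPO samples, against 0.06 and 0.75 in PBS samples and 0.86 in the untreated sample. PBS replicate 1 was the lowest of the 6 and the untreated sample the highest, so the control arm spanned all rHuEPO values. The difference, rHuEPO minus control, was 0.06 ± 0.25 (limma SE), with -0.32 in slide 1 and 0.25 in slide 2. The spots of one array had an SD between 0.0358 and 0.0947 log2 units, while the means of the 6 arrays had an SD of 0.286, which is 3.02 times the largest of the spot SDs. A second Igf1 probe (A_52_P351116) was well above background on none of the rHuEPO arrays and on 2 of the 3 control arrays, PBS replicate 2 and the untreated one, and it was too dim to be tested.

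**Figure D2:**
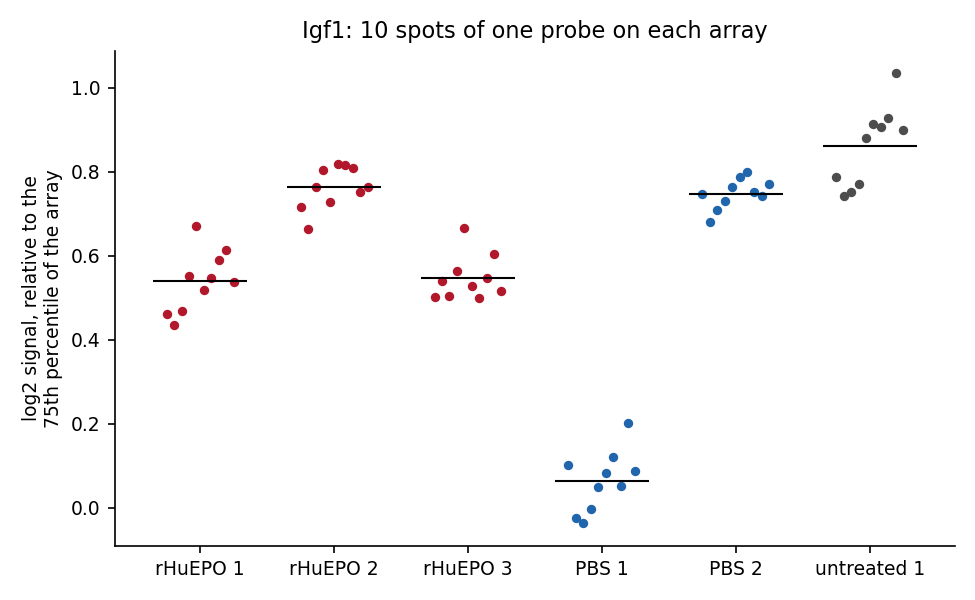
Log2 signal of each of the 10 spots of the main Igf1 probe on the 6 arrays, relative to the array's 75th percentile, with rHuEPO arrays on the left. Black lines are the means. Spots of one array lie close together, with an SD of at most 0.0947, while PBS replicate 1, with a mean of 0.06, stands below the other 5 arrays.

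The receptor genes were the steadiest of the family. Igf1r, which encodes the signalling receptor of IGF1, had log2 levels of 0.91, 0.98 and 0.90 in rHuEPO samples, against 1.35 and 1.02 in PBS samples and 1.04 in the untreated sample. Every rHuEPO value lay below every control value, by a small margin. Its mean was 0.93 ± 0.04 in rHuEPO samples and 1.14 ± 0.18 in control samples (SD, n = 3 each), a difference of -0.21 ± 0.17 (limma SE), with -0.13 in slide 1 and -0.25 in slide 2. A second probe (A_52_P634111) also had all rHuEPO values below all control values, with a difference of -0.30, and another (A_51_P318365) overlapped between the arms, with a difference of -0.18. Over all genes 5.39% had every rHuEPO array below every control array. The SD of Igf1r within the arms was 0.133, and 9.96% of all genes had a smaller one.

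Igf2r, which encodes the receptor that clears IGF2 and sorts mannose 6-phosphate proteins to lysosomes, had log2 levels of 1.38, 1.08 and 0.86 in rHuEPO samples, against 1.31 and 1.10 in PBS samples and 1.65 in the untreated sample. The arms overlapped, and in each arm the slide 1 array was the highest. The difference between the arms was -0.25 ± 0.22 (limma SE), with -0.27 in slide 1 and -0.24 in slide 2. Between slide 1 and slide 2, with treatment in the fit, Igf2r differed by 0.43 ± 0.14 (limma adjusted p = 0.102).

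Irs1, which encodes the docking protein that links the activated receptors to PI3-kinase, varied most of the 8 genes tested. Its log2 levels were -1.79, -0.89 and -0.42 in rHuEPO samples, against -1.75 and 0.18 in PBS samples and -0.72 in the untreated sample. The PBS samples marked the second lowest and the highest of the 6 values. The SD within the arms was 0.841, larger than that of 96.3% of all genes, against a median of 0.289 over all genes. The difference between the arms was -0.27 ± 0.53 (limma SE), with -1.07 in slide 1 and 0.13 in slide 2. The sign thus turned between the slides. A second Irs1 probe (A_52_P171212) was well above background on no array.

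Among the other binding protein genes Igfbp3, which encodes the main IGF carrier of blood plasma, was well above background on none of the 6 arrays, so it has no level here. Igfbp4 encodes a binding protein that is cut by the protease PAPP-A to free IGF. Its log2 level was -1.36, -1.66 and -1.60 in rHuEPO samples, against -1.55 and -1.84 in PBS samples and -0.46 in the untreated sample. The rHuEPO and PBS values overlapped and the untreated sample stood above both. The difference between the arms was -0.26 ± 0.35 (limma SE). The high untreated value is that of 1 array, which lay on the other slide from the PBS arrays. Against PBS alone the rHuEPO samples differed by 0.15. Within slide 1, where the untreated array was the only control, the difference was -0.91, and within slide 2 it was 0.06.

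Igfbp5, which encodes a binding protein that attaches to extracellular matrix and bone mineral, was also highest in the untreated sample. Its log2 level was 1.13, 1.43 and 1.69 in rHuEPO samples, against 1.31 and 1.49 in PBS samples and 2.48 in the untreated sample. The rHuEPO values spanned those of PBS. The difference between the arms was -0.34 ± 0.33 (limma SE), with -1.35 in slide 1 and 0.16 in slide 2, and it was 0.01 against PBS alone. The second Igfbp5 probe (A_51_P204153) read -2.98, -2.62 and -2.70 in rHuEPO samples, against -2.18 and -2.86 in PBS samples and -0.81 in the untreated sample. Its largest value was again that of the untreated sample. Igfbp5, the neighbour of Igfbp2 on chromosome 1, was well above background on all 6 arrays.

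Igfbp7 encodes a secreted protein of vessels and stroma that binds IGFs only weakly. Its log2 level was 2.15, 2.84 and 3.09 in rHuEPO samples, against 1.95 and 2.70 in PBS samples and 3.05 in the untreated sample. Replicate 1 of rHuEPO and replicate 1 of PBS were the lowest, and they lay on different slides. The difference between the arms was 0.13 ± 0.35 (limma SE), with -0.90 in slide 1 and 0.64 in slide 2.

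Of the 8 genes tested, 1, Igfbp2, had rHuEPO values that all exceeded the control values (5.01% of all genes did), and 1, Igf1r, had the opposite order (5.39%). By limma with Benjamini-Hochberg adjustment over all genes, 0 of the 8 were past the threshold of 0.05 in this comparison, where 10 of 14853 genes were, all higher (0.0673%). At an unadjusted p under 0.05 limma listed 1 of the 8, Igfbp2, and 736 genes in all (4.96%). With slide as a block 11 genes were past the threshold (0.0741%), Igfbp2 among them. Igfbp2 was chosen by its change in this comparison, and it passed the filter on dim probes only through the 3 rHuEPO arrays. Its listings here therefore describe that choice and are no test. Against PBS alone the count was 3 genes (0.0202%) and 0 of the 8. The 7 genes other than Igfbp2 had differences between -0.34 and 0.13, with 2 above 0, and the median over all genes was -0.01. The comparisons against all controls and against PBS share the rHuEPO and PBS arrays.

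**Figure D3:**
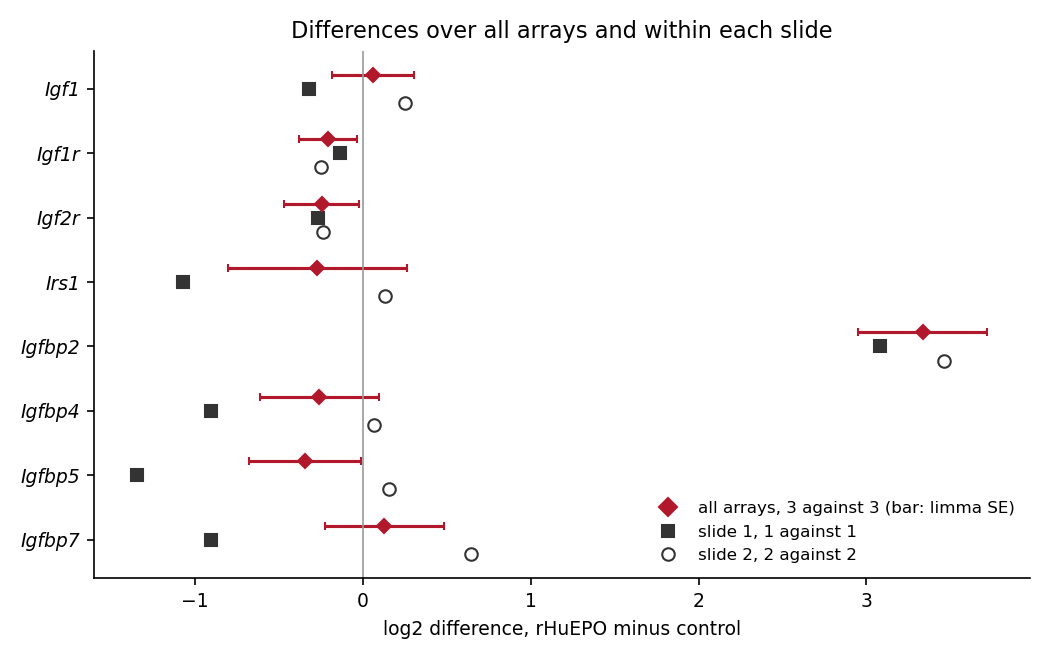
Log2 difference, rHuEPO minus control, for 8 genes. Red diamonds are all arrays, 3 against 3, with the limma SE as bars, squares are slide 1 (1 against 1 array) and open circles are slide 2 (2 against 2 arrays). Igfbp2 lies at 3.08 and 3.46 in the slides. For Igf1, Irs1, Igfbp4, Igfbp5 and Igfbp7 the slide 1 value is below 0 and the slide 2 value above 0.

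The contrast inside the control arm, untreated minus PBS, did not choose the genes, though its arrays are the controls of the comparison that did. It sets 1 array against 2, with the untreated array assumed to vary like the others in a fit of all 6 arrays, so its p-values rest on the spread within the other groups and cannot separate injection from slide. Igfbp4 was higher in the untreated sample by 1.24 ± 0.28 (limma SE; unadjusted p = 0.00388, adjusted p = 0.676), and its second probe (A_52_P257502) by 1.00. Igfbp5 was higher by 1.08 ± 0.32 (limma unadjusted p = 0.0123, adjusted p = 0.676), and its second probe by 1.70. No gene in either direction passed after adjustment, so neither did these. At an unadjusted p under 0.05 limma listed 2 of the 8 genes, Igfbp4 and Igfbp5, and 804 of all 14853 (5.41%). Without Igfbp2, which was not above background in either control group, the differences of the 7 genes ranged from -0.14 for Igf1r to 1.24 for Igfbp4, with 6 above 0. Igfbp7 differed by 0.73 ± 0.48, Igf1 by 0.46 ± 0.35, Igf2r by 0.44 ± 0.31 and Irs1 by 0.07 ± 0.84 (limma SE; adjusted p between 0.676 and 0.978 for all 7).

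On the untreated array 4 of the 8 genes had their highest value of all 6 arrays, Igf1, Igf2r, Igfbp4 and Igfbp5, and 16.3% of all genes did. The stroma marker sum was also highest there, at 94.6 against 34.1 and 59.9 in the PBS samples, and 11 of its 13 genes were above PBS, with a median log2 difference of 0.77 against -0.11 over all genes. Of the brightest stroma markers, Cxcl12, a chemokine of marrow niche cells, had a log2 level of 5.47 in the untreated sample, against 4.46 and 4.93 in the PBS samples. Col1a2, a collagen chain of bone and stroma, had 4.42 in the untreated sample, against 1.71 and 3.05 in the PBS samples. The endothelial sum was 4.59 in the untreated sample, against 2.91 and 3.64 in the PBS samples, with Tek and Flt4 well above background on no array. The B lineage sum was 95.8 in the untreated sample, against 29.2 and 136.2 in the PBS samples, which lay far apart, and 7 of 7 B lineage genes were above the PBS mean, with a median log2 difference of 1.09. Other lists rose less or fell: 7 of 10 erythroblast genes (median 0.13) and 6 of 10 macrophage genes (median 0.03) were above PBS. So were 2 of 5 megakaryocyte genes (median -0.06) and 0 of 8 neutrophil genes (median -0.26). The part of any of these cell types, of slide or of injection in the Igfbp4 and Igfbp5 values was not tested. Between slide 1 and slide 2, with treatment in the fit, Igfbp4 differed by 0.75 ± 0.24 (limma adjusted p = 0.0953) and Igfbp5 by 0.33 ± 0.34 (limma adjusted p = 0.533), and 0 of the 8 genes were called there in either direction, against 3.43% of all genes higher and 7.18% lower on slide 1.

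**Figure D4:**
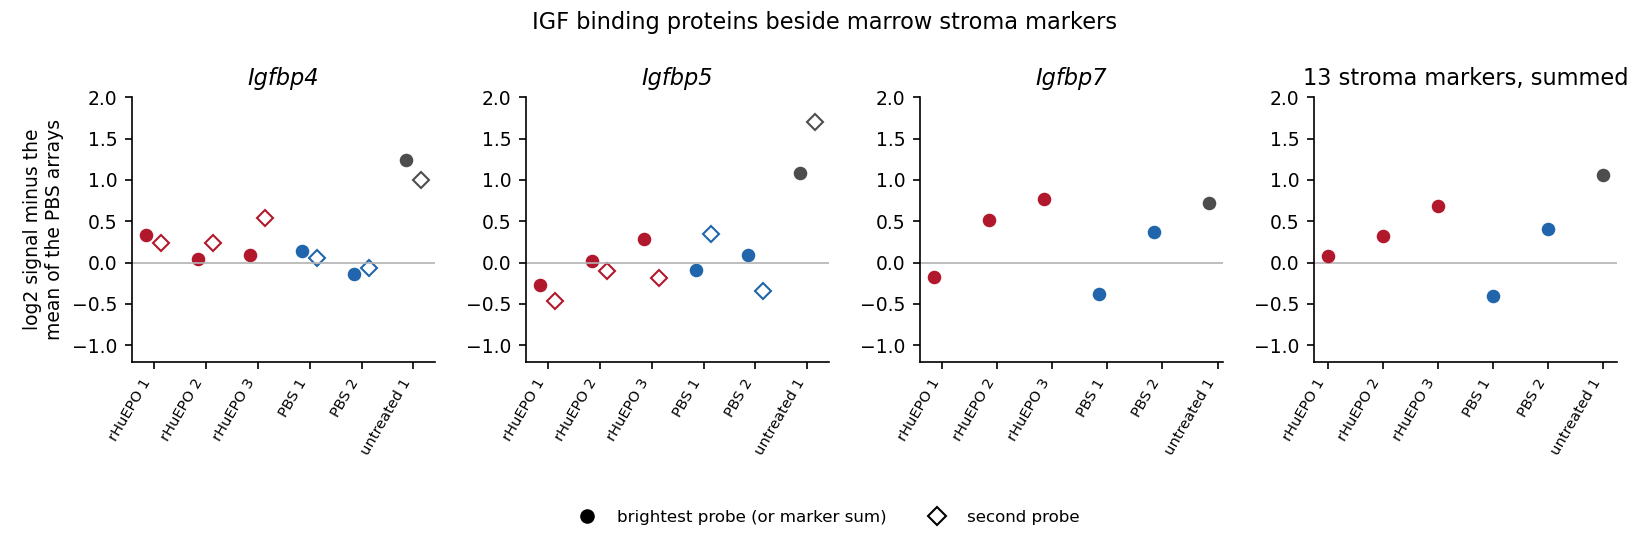
Log2 signal minus the mean of the 2 PBS arrays for Igfbp4, Igfbp5 and Igfbp7 and for the summed signal of 13 marrow stroma markers, with rHuEPO arrays on the left. Filled circles are the brightest probe and open diamonds the second probe. Both probes of Igfbp4 and of Igfbp5 are highest on the untreated array, by 1.00 to 1.70 over PBS, as is the stroma sum.

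Across the 6 arrays the pattern of Igfbp2 was compared with that of 10993 named genes by Pearson's r, given as a description because the points share arrays and arms. Igfbp2 was chosen for its difference between the arms, so a gene that differs steadily between them gets an r far from 0. The 3 control readings of Igfbp2 were not above background, so their order carries little information. Vkorc1l1, a paralog of the vitamin K epoxide reductase gene, was most like it (r = 0.995), followed by Ccdc189 (0.993), Rbm43 (0.987), Ddx41 (0.982) and Lrrc59 (0.981). The size of their differences varied widely, from 0.17 for Ddx41, a DEAD-box helicase gene, to 1.37 for Ccdc189, a coiled-coil gene. Ccdc189 had log2 levels of 0.96, 1.25 and 1.19 in rHuEPO samples, against -0.08 and -0.34 in PBS samples and -0.29 in the untreated sample, and it was well above background on every array. The most opposite patterns were those of Cmtm8 (r = -0.997), Oga, the enzyme that removes O-GlcNAc from proteins (-0.990), and Clgn, a testis chaperone gene (-0.987).

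The rest of the pathway was read from 4 lists with 84 genes in all, of which 63 were tested. By limma with Benjamini-Hochberg adjustment 0 of the 63 were called in either direction between rHuEPO and control, with or without slide as a block, and 20 lay above 0 and 43 below, with a median of -0.07, against 47.3% of all genes above 0 and a median of -0.01. Among the 63, 2 genes had rHuEPO values that all exceeded the control values and 4 had the opposite order, against 5.01% and 5.39% of all genes. The genes named below have the smallest p of their list.

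Of 18 other ligand, receptor and IGF carrier genes 6 were tested, 3 above and 3 below 0 (median 0.07). Both insulin genes, Igfbp1 and Igfals were too dim. Htra1, a secreted protease that cuts IGF binding proteins, differed by 0.39 ± 0.28, with -0.33 in slide 1 and 0.76 in slide 2. Pappa, the protease PAPP-A that cuts IGFBP4, differed by -0.64 ± 0.48, with -2.11 in slide 1 and 0.10 in slide 2. Insr, the insulin receptor gene, differed by -0.35 ± 0.36, and Insrr, its relative that senses alkaline pH, by 0.27 ± 0.25 (limma adjusted p = 1.00 for all 4). Insrr was dim, well above background on 2 rHuEPO arrays and 2 control arrays only, so the size of its difference is uncertain. In untreated minus PBS 5 of the 6 genes tested lay above 0, with a median of 0.68.

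Of 28 adaptor and PI3-kinase to AKT genes 24 were tested, 11 above and 13 below 0 (median -0.01), within -0.36 and 0.35. Grb10, an adaptor that restrains the insulin and IGF1 receptors, was the one gene of this list without overlap, at -0.05, -0.21 and -0.19 in rHuEPO samples, against -0.64 and -0.49 in PBS samples and -0.36 in the untreated sample. The Grb10 difference was 0.35 ± 0.17 (limma adjusted p = 1.00), with 0.30 in slide 1 and 0.37 in slide 2. Its relative Grb14 differed by -0.36 ± 0.33, the PI3-kinase catalytic subunit gene Pik3cb by 0.30 ± 0.19, and the regulatory subunit gene Pik3r2 by -0.22 ± 0.17.

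All 17 genes of the mTORC1 arm list, which also holds Rictor of mTORC2, were tested, 4 above and 13 below 0 (median -0.12). Rictor, a subunit of mTORC2, had all rHuEPO values below all control values, at -1.80, -1.71 and -2.05 in rHuEPO samples, against -1.67 and -1.53 in PBS samples and -1.37 in the untreated sample. Its difference was -0.33 ± 0.18 (limma adjusted p = 1.00). Ddit4, a stress-induced inhibitor of mTORC1, read 3.51, 4.92 and 5.65 in rHuEPO samples, against 5.27 and 5.33 in PBS samples and 5.32 in the untreated sample. The control values lay close together and the rHuEPO values spread around them, with replicate 1 the lowest. The Ddit4 difference was -0.61 ± 0.49, with -1.81 in slide 1 and -0.01 in slide 2, and it was -0.02 without rHuEPO replicate 1 and -1.09 without rHuEPO replicate 3. The difference of Tsc1, a subunit of the complex that holds mTORC1 in check, was -0.41 ± 0.34, and that of Sesn3, a sestrin gene, was -0.27 ± 0.23. A second Tsc1 probe gave 0.09.

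Of 21 FOXO factor and classical FOXO target genes 16 were tested, 2 above and 14 below 0 (median -0.17), with 1 separated upward and 3 downward (5.01% and 5.39% over all genes). Foxo3, Foxo4 and Foxo6 were too dim. Depp1, a FOXO target linked to autophagy, had the largest difference of the 63, with log2 levels of -4.79, -3.10 and -3.04 in rHuEPO samples, against -1.65 and -1.12 in PBS samples and -0.18 in the untreated sample. The lowest value, that of rHuEPO replicate 1, was not well above background. The Depp1 difference was -2.66 ± 0.55 (limma adjusted p = 0.470), and it was -1.69 in slide 2. The slide 1 value of -4.61 rests on the reading that was not above background. With normexp correction the difference was -1.155, so its size is uncertain.

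Gabarapl1, an autophagy gene, read 5.20, 5.67 and 5.69 in rHuEPO samples, against 4.97 and 5.08 in PBS samples and 4.67 in the untreated sample. The Gabarapl1 difference was 0.62 ± 0.21 (limma adjusted p = 0.856), 0.72 by its second probe, and Gabarapl1 and Depp1 thus lay on opposite sides of 0. Bcl2l11, which encodes the pro-apoptotic protein BIM, differed by -0.42 ± 0.16 (limma adjusted p = 0.908). It had no overlap between the arms, but its second probe gave -0.06. Cdkn1b, which encodes the cell cycle inhibitor p27, read 1.52, 1.46 and 1.44 in rHuEPO samples, against 1.89 and 1.95 in PBS samples and 1.75 in the untreated sample. All rHuEPO values were lower, with a difference of -0.39 ± 0.16 (limma adjusted p = 0.973) and -0.53 by the second probe. None of these genes passed the test.

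**Figure D5:**
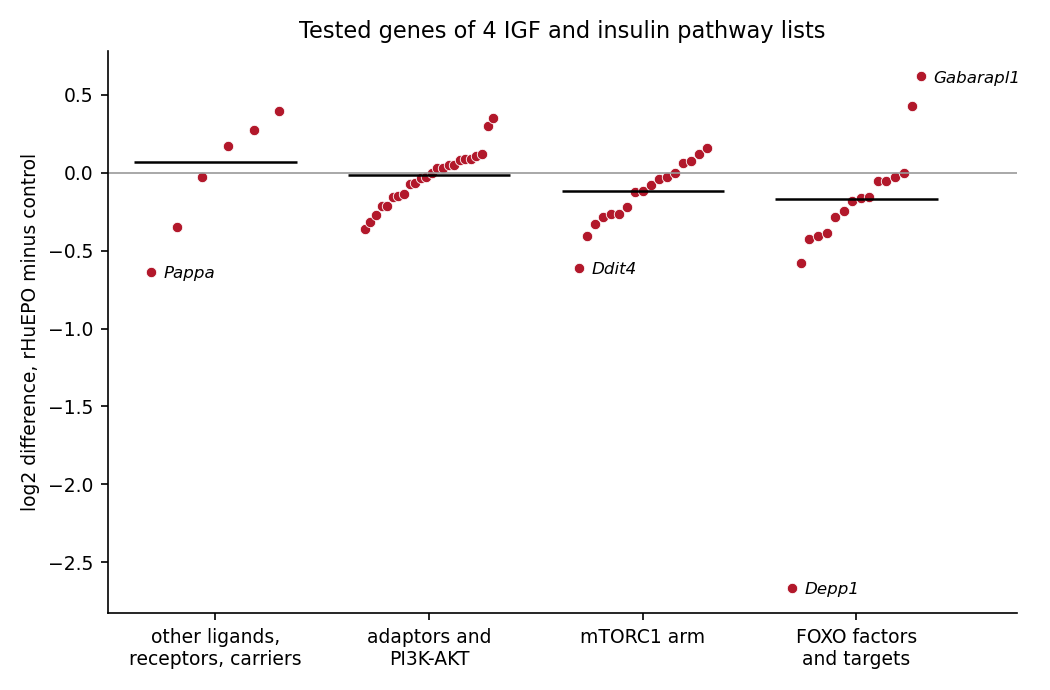
Log2 difference, rHuEPO minus control, of each of the 63 tested genes of 4 pathway lists, sorted within the list, with black lines at the list medians. The medians lie between -0.17 and 0.07. Depp1, at -2.66, lies far below the rest, and Gabarapl1, at 0.62, is the highest.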

How the data were processed

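Cy3-labelled total RNA was hybridised to 1-colour Agilent arrays, per the labels. The authors deposited the scanner output, which per the file headers comes from version 10.7.3.1 of Agilent's Feature Extraction software and whose processed signal is a linear intensity with the background taken off. They also deposited a table of log2 values, and its scaling is not stated in the sources used here. Compared with the scanner output, the table matched log2 intensities scaled by the 75th percentile and centred per probe (slopes of 0.9995 or more), with column medians of 0.117, 0.0111 and 0.0867 for rHuEPO, -0.0569 and -0.0976 for PBS and -0.103 for the untreated array, so its direction is settled.

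The values used are log2 processed signals less the 75th percentile of the gene spots on that array, without the 1639 control spots and outlier spots. The 75th percentile was 220.7 to 264.0, and 46.2% to 46.6% of gene spots on rHuEPO arrays and 48.6% to 50.5% on control arrays were well above background. No spot was saturated. Spots of a probe were averaged, and 17 of 41174 probes without a usable value were left out. Accessions were matched to RefSeq (GRCm38.p6), which named 26670 probes (64.8%). The array's own coordinates belong to another build and are not used. A probe was tested when well above background on at least 3 of 6 arrays (19590 probes), and a gene is its brightest tested probe.

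Tests used limma 3.58.1 in R 4.3.3 (lmFit, eBayes, two-sided, Benjamini-Hochberg, threshold 0.05) on rHuEPO against PBS and untreated together, as the series' design states. A fit with 3 groups gave the contrasts with PBS. The fit was tested on simulated data with known changes. The slide, which is also the scan, was read from the file headers. Replicate numbers showed no sign of pairing: deviations from group means correlated at -0.07 for number 1 and -0.16 for number 2. With 2 PBS arrays their deviations mirror each other, and rHuEPO replicate 1 and PBS replicate 1 lay on different slides. This check therefore cannot decide whether the numbers pair samples. Arrays correlated at 0.964 to 0.991, so none was counted as a repeat.

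The members, the 4 pathway lists and the marker lists were chosen with earlier results of these data known. Genes named beyond the members are the 4 with the smallest p of each pathway list, the 5 genes most like Igfbp2 and the 3 least like it among genes with a RefSeq symbol, and bright stroma markers. Alternatives were median and quantile scaling, normexp background correction, other filters, the deposited table, the mean of probes or single probes, PBS as the only control, slide or replicate number as a block, an intensity trend with a robust prior, array weights and each array left out. Normexp used median signals, with the local background of outlier spots set to the array median. Each slide alone was added after seeing the data.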

Additional observations from a re-analysis of the deposited data

How the results depend on the processing

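Under every alternative that gave a value, 0 of the 63 pathway genes were called, and of the members only Igfbp2 was, with slide as a block and with array weights (1 called in each), where its adjusted p was 0.0495 and 0.00713 by limma. Over all its settings that p ran up to 0.853, and since the change chose the gene it is a description. The Igfbp2 difference lay between 3.06 and 3.86 in the other settings, also with each array left out (3.06 to 3.68), but was 0.69 with normexp. With the filter on all 6 arrays Igfbp2 had no value. The count of genes called, 10, was 1 without a filter on dim probes, 5 with the filter on all 6 arrays, 3 with PBS as the only control, 27 with array weights, 3 in slide 2 alone, and 1 to 6 with one array left out. It was 3 without the untreated array or rHuEPO replicate 1, 1 without PBS replicate 1, rHuEPO replicate 2 or rHuEPO replicate 3, and 6 without PBS replicate 2. With replicate number as a block, where the numbers are not known to pair samples, it was 1, and the Igfbp2 difference was 3.29. Between slides, median scaling moved the calls to 2955, against 1577. In slide 1 alone the differences were -0.32 for Igf1, -0.91 for Igfbp4, -1.35 for Igfbp5, -0.90 for Igfbp7, -1.07 for Irs1 and -2.11 for Pappa. In slide 2 alone they were 0.25 for Igf1, 0.06 for Igfbp4, 0.16 for Igfbp5, 0.64 for Igfbp7, 0.13 for Irs1 and 0.10 for Pappa. The sign thus turned between the slides for each of these genes, and the cause was not tested. Dim probes limit what can be said of Igfbp2 in controls and of Igfbp3 on any array.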
